A study of Mus musculus with 11 samples.

Results

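The 122 genes described here are the vomeronasal type 2 receptor genes of the mouse (Vmn2r genes), a family of pheromone receptors, in profiles of chromatin bound by the tagged retinoic acid receptor alpha (RARα). The members were chosen by symbol: protein-coding genes named Vmn2r followed by a number in a RefSeq table of GRCm38.p6. The rule found 123 genes among 21887 protein-coding genes in the table. Vmn2r122 was set aside because its coordinates are those of a contig rather than of an assembled chromosome, which left 122 members among 21779 genes tested.

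The profiles came from CUT&RUN, in which an antibody tethers a nuclease that releases the DNA around a protein, here with an antibody against the Myc tag of RARα. The cells were cortical cells of E14 mouse embryos, selected on magnetic beads by Prom1, a membrane protein found on neural progenitors, and made permeable with 0.05% digitonin. There were 6 Myc-tag libraries, 3 control and 3 Foxc1 mutant. Foxc1 encodes a forkhead transcription factor that the developing meninges require. Control and mutant libraries share the tagged RARα, the age, the tissue and the bead selection. The strain, the Foxc1 allele, and the way tagged RARα was expressed were not given in the sources used here. Nor do the labels say whether replicates are separate embryos, so the spread between libraries may be technical. The 5 isotype libraries of the series were not analysed here, so no antibody background stands beside the values. The labelled cell type could not be checked against expression, since peak lists hold none.

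Type 2 vomeronasal receptors are class C G protein-coupled receptors with a large extracellular domain that binds peptides and proteins such as those in urine and tears. They are made by sensory neurons of the basal layer of the vomeronasal organ, which signal through the G protein subunit Gnao1 and the channel Trpc2. Their genes lie in tandem clusters that arose by repeated duplication, so that some copies are almost identical in sequence, and outside chemosensory tissue the family is generally silent. Reads from near-identical copies can be hard to place, and how the authors treated such reads was not given in the sources used here. Values of near-identical members are therefore uncertain for each copy.

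The upstream sequences below, from RefSeq promoters of GRCm38.p6, show the extremes of the family: a pair whose copies had no peak in any library, a near-identical pair that was called in several libraries, a member called in every library, and a pair that carries the core motif of nuclear receptors. Each is the 250 bases before the annotated gene start, 5′ to 3′ on the strand of the gene. Vmn2r62 (chr7:42793497-42793746, minus strand) and Vmn2r126 (chr7:43018548-43018797, plus strand) have identical upstream sequence. Vmn2r114 (chr17:23312314-23312563, minus strand) and Vmn2r115 (chr17:23343727-23343976, plus strand) differ at 2 bases, which are in capitals. Vmn2r12 lies at chr5:109097865-109098114 on the minus strand. In Vmn2r106 (chr17:20285431-20285680, minus strand) and Vmn2r109 (chr17:20564757-20565006, minus strand) the capitals mark TGACCT, the reverse complement of the nuclear receptor core motif AGGTCA.
Vmn2r62: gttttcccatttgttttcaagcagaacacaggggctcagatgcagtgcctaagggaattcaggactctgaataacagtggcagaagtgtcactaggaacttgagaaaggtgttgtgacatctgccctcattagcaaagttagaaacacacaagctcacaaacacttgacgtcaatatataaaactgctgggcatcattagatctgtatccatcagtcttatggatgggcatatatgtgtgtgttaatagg
Vmn2r126: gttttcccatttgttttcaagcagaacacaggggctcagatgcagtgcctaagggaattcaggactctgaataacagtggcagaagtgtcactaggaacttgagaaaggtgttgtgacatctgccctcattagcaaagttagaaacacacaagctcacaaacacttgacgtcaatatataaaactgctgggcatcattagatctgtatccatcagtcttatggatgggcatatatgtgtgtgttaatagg
Vmn2r114: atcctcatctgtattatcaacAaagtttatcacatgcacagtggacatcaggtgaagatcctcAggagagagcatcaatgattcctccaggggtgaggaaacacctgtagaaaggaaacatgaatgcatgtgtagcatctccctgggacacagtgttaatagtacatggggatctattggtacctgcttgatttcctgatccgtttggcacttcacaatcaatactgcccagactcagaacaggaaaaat
Vmn2r115: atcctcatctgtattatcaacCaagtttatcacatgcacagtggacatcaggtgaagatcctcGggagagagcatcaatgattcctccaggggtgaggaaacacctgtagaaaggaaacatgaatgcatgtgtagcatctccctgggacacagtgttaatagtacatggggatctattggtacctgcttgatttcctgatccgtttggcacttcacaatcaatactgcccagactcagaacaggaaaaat
Vmn2r12: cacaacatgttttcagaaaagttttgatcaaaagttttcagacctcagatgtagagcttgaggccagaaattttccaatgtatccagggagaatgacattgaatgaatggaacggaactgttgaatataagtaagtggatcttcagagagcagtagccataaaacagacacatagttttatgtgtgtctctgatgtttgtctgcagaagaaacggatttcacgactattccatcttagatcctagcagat
Vmn2r106: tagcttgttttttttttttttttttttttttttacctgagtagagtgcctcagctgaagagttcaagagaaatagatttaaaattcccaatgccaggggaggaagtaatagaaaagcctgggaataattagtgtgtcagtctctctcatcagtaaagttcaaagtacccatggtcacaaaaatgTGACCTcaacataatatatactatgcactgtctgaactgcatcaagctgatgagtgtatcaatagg
Vmn2r109: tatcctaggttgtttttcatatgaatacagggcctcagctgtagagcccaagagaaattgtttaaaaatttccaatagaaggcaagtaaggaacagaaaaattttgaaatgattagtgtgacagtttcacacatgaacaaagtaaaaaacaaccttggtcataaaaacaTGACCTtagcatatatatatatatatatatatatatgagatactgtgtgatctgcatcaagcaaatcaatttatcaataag

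In 4 of the 6 deposited lists the share of other genes of the same length that had a peak lay within the counting error of the Vmn2r share, and in the 2 longest lists the Vmn2r share was lower. A member was counted as called when a peak overlapped its gene span plus 5 kb on each side by at least 1 bp. The control lists held 86446, 11869 and 30273 peaks for replicates 1, 2 and 3, and the mutant lists 54112, 410562 and 513290. The number of reads behind each list was not given in the sources used here, so a member without a peak is not shown to be unbound.

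In control replicate 1, 90 of 122 members (73.8%, 95% exact binomial interval 65.0 to 81.3%) were called, where 70.1% of all genes tested were. Control replicate 2 called 13 members (10.7%, 5.80 to 17.5%) against 16.7% of all genes, and control replicate 3 called 35 (28.7%, 20.9 to 37.6%) against 32.4%. The control libraries thus ranged from a small minority of the family to most of it. Mutant replicate 1 called 70 members (57.4%, 48.1 to 66.3%) against 50% of all genes. Mutant replicate 2 called 104 (85.2%, 77.7 to 91.0%) against 92.2%, and mutant replicate 3 called 99 (81.1%, 73.1 to 87.7%) against 93.0%. The genotypes overlapped, because control replicate 1 lay above mutant replicate 1. The intervals cover counting error only and treat members as independent, although 10 of the 122 share a window with a neighbour. Calls also ran together within genomic clusters. In mutant replicate 3 a chromosome 7 cluster of 24 members had 16.7% called, and a chromosome 17 cluster of 22 had 100%. The intervals are therefore too narrow as a measure of spread across the family.

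Because longer genes catch more peaks, each member was also set against the 200 other protein-coding genes nearest to it in span length. Members spanned from 8397 to 142676 bp. Genes of matched length were called at 74.9%, 13.7% and 30.0% in the control lists and at 51.2%, 95.9% and 95.8% in the mutant lists. The family differed from its length-matched share by -1.09, -3.01 and -1.31 percentage points in the control libraries, within the interval of each. The difference was 6.21 points in mutant replicate 1, also within the interval, and -10.6 and -14.7 points in mutant replicates 2 and 3, where the intervals do not reach the matched share. The mean difference from matched genes was -1.81 ± 1.05 points (SD, n = 3) in control and -6.36 ± 11.1 points (SD, n = 3) in mutant libraries, and the groups overlapped.

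**Figure D1:**
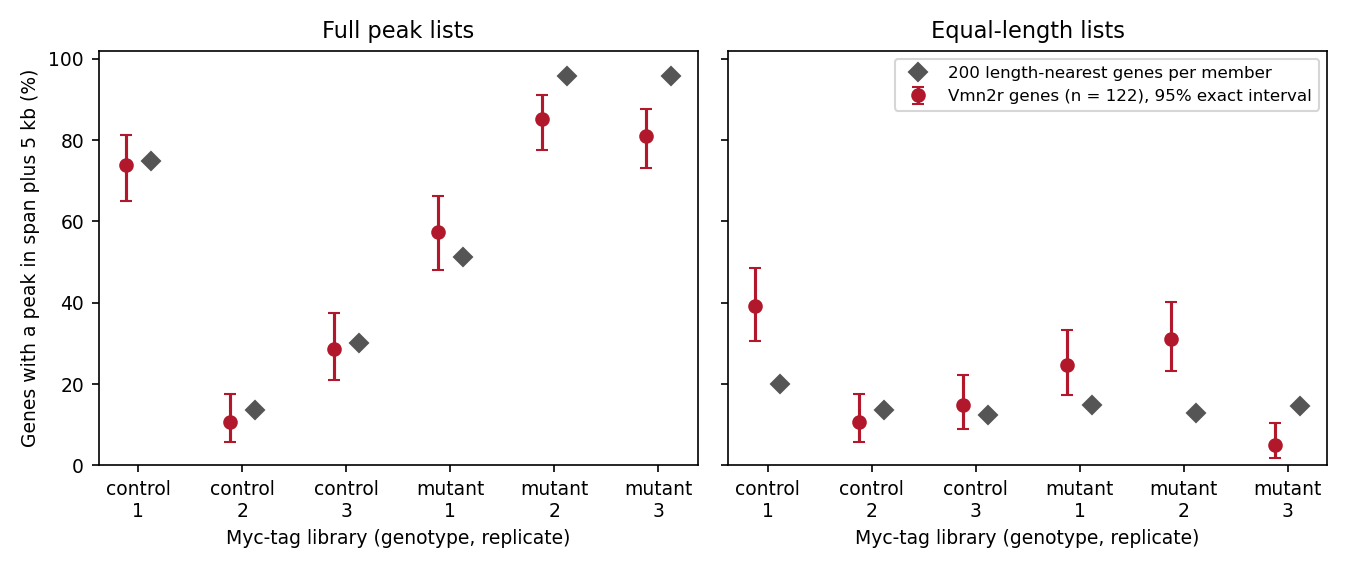
Share of the 122 Vmn2r genes with a peak in each Myc-tag library (circles, 95% exact binomial interval) and the mean share over the 200 genes nearest in length to each member (diamonds), in percent, for the full lists (left) and for lists of 11869 peaks (right). In the full lists the family falls below its matched share in mutant replicates 2 and 3, and in equal-length lists it lies above it in control replicate 1 and mutant replicates 1 and 2.

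Each list was then reduced to its 11869 peaks of highest total signal. Beyond counting error alone, the Vmn2r share then lay above matched genes in 3 libraries and below them in 1. Control replicate 1 called 48 members (39.3%) where matched genes gave 20% and all genes 23.0%. Mutant replicate 1 called 30 (24.6%) against 14.8% of matched and 18.5% of all genes, and mutant replicate 2 called 38 (31.1%) against 12.9% and 16.7%. In these 3 libraries the matched share lay below the interval of the family. Their calls were uneven across genomic clusters. The chromosome 17 cluster of 22 had 77.3%, 45.5% and 54.5% called in them, and the chromosome 7 cluster of 24 had 4.17%, 0% and 0%. In mutant replicate 3 only 6 members (4.92%) were called, below the 14.7% of matched and 17.7% of all genes. Control replicate 2, whose list is used whole, gave 13 members (10.7%) against 13.7% and 16.7%, and control replicate 3 gave 18 (14.8%) against 12.5% and 16.4%. Libraries of the same genotype therefore lay on opposite sides of the matched share. The mean difference from matched genes was 6.20 ± 11.7 points (SD, n = 3) in control and 6.08 ± 14.4 points (SD, n = 3) in mutant libraries.

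The length of DNA under peaks showed a similar order. Peaks covered on average 17.5% of a member's window in control replicate 1, against 9.92% for matched genes, and 16.4% against 11.6% in mutant replicate 2. Mutant replicate 1 had 2.28% against 1.49%, while mutant replicate 3 had 12.8% against 14.3%. Control replicates 2 and 3 had 0.133% against 0.127% and 0.285% against 0.280%. Peaks in control replicate 1 were also wider, with a median of 2326.5 bp over the whole list, than in any other library (260 to 737 bp), and the part of peak width in these shares was not tested.

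The family fell into 18 genomic clusters, with members under 1 Mb from the next joined together, and 6 of these were single genes. One cluster stood far below the others. The plot of members by cluster shows it as an almost empty block on chromosome 7.

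**Figure D2:**
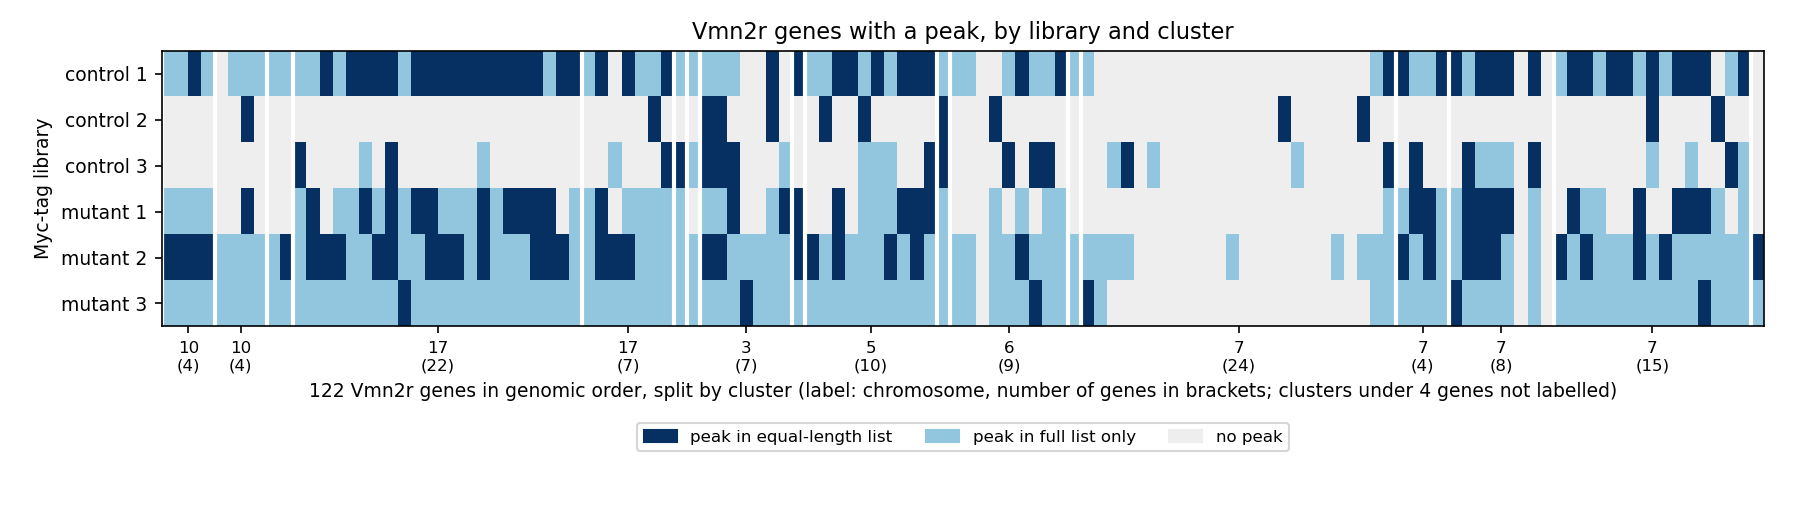
Each column is 1 of the 122 Vmn2r genes in genomic order and each row a Myc-tag library; dark blue marks a peak in the equal-length list, light blue a peak in the full list only, and grey no peak, with white lines between clusters. The chromosome 7 cluster of 24 genes is grey in most cells of every row, while nearly all other columns are blue in mutant replicates 2 and 3.

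The chromosome 7 cluster of 24 members runs from Vmn2r29 to Vmn2r52 (chr7:7212996-10176286). Its members were called 3, 2 and 5 times in control replicates 1, 2 and 3 and 1, 9 and 4 times in the mutant replicates. As shares, these were 12.5%, 8.33% and 20.8% in the control and 4.17%, 37.5% and 16.7% in mutant libraries. Genes of matched length gave 71.1%, 11.7% and 28.0% in the control and 45.3%, 95% and 94.6% in mutant libraries. The cluster was thus sparse in the 4 longest lists, and within the interval of the matched share in the short lists of control replicates 2 and 3. Of its 24 members, 12 had no peak in any full list, although the 2 longest lists called 92.2% and 93.0% of all genes.

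Vmn2r52, at the far end of the cluster, was the exception inside it. Its highest peak reached 15, 0 and 2 steps in control replicates 1, 2 and 3 and 4, 7 and 6 steps in the mutant replicates. A step is the smallest signal unit of a library, worth a different signal in each, so heights in steps are compared within a library only, and 0 means no peak. Vmn2r29, at the other end, had 9, 0 and 0 steps in control and 0, 5 and 6 in mutant libraries, and Vmn2r51, the neighbour of Vmn2r52, had 14, 0 and 0 and 0, 5 and 5. The members with peaks in both long mutant lists were these 3 and Vmn2r30, with 0, 0 and 0 steps in control and 0, 5 and 5 in mutant libraries. All 4 sit at the ends of the cluster.

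Between those ends lay long stretches with no peak. In mutant replicate 3 the longest one touching the cluster ran from chr7:8403962-10064593, 1660 kb with 10 members inside, and it was the 6th longest of 513269 gaps between peaks, whose median was 2.52 kb. In control replicate 1 the stretch was 1640 kb with 10 members (9th of 86425 gaps), and in mutant replicate 1 it was 2520 kb with 18 members (7th of 54091). In mutant replicate 2 it was 805 kb with 4 members (20th of 410541). The peak-free stretches of control replicate 1 and mutant replicate 3 both began before Vmn2r45 and ended after Vmn2r50. Peaks covered 1.61% of the cluster in control replicate 1 and 0.125%, 1.91% and 1.21% in the mutant replicates, against 8.07%, 1.46%, 12.3% and 15.7% of all chromosomes.

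Of the other protein-coding genes in the cluster, Clcn4, a chloride-proton exchanger, had peaks of 13, 0 and 2 steps in control and 0, 5 and 6 steps in mutant libraries. Gm10302, which lies between Vmn2r37 and Vmn2r46, had none in any list. Both were named after their values were seen.

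Outside this cluster nearly every member was called in the longest lists. Of the 98 other members, 87, 11 and 30 were called in control replicates 1, 2 and 3 (88.8%, 11.2% and 30.6%) and 69, 95 and 95 in the mutant replicates (70.4%, 96.9% and 96.9%). Their length-matched shares were 75.8%, 14.1% and 30.5% in the control and 52.6%, 96.1% and 96.1% in mutant libraries. Without the cluster of 24, the family no longer fell below matched genes in mutant replicates 2 and 3, and it lay 13.0 and 17.8 points above them in control replicate 1 and mutant replicate 1. The members missed outside it in both mutant replicates 2 and 3 were Vmn2r21, Vmn2r62 and Vmn2r126, which had no peak in any list. Vmn2r62 and Vmn2r126 are the pair printed above with identical upstream sequence, and with 25 kb on each side both had peaks in 4 lists.

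The chromosome 17 cluster of 22 members, from Vmn2r90 to Vmn2r110 (chr17:17703941-20596259), was covered by peaks more than any other cluster of 4 or more genes in control replicate 1 and mutant replicate 2. All 22 members were called in control replicate 1 and in mutant replicates 2 and 3, where matched genes gave 78.8%, 96.1% and 96.1%, and 20 in mutant replicate 1, where they gave 55.8%. None was called in control replicate 2 and 4 in control replicate 3, against 15.2% and 31.9% of matched genes. In equal-length lists 17, 0 and 2 were called in control and 10, 12 and 1 in mutant libraries, where matched genes gave 21.3%, 15.2% and 13.7% in the control and 16.6%, 14.9% and 15.6% in mutant libraries. Peaks covered 33.3% of the cluster in control replicate 1, 3.62% in mutant replicate 1 and 21.9% in mutant replicate 2, each above the value over all chromosomes, and 13.6% in mutant replicate 3, below it.

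Within this cluster Vmn2r96 was the member in the most equal-length lists, 4 of them. Its highest peak in the full lists was 12, 0 and 3 steps in control and 4, 6 and 5 steps in mutant libraries. The start of Vmn2r96 has 53.3% identity at most to any other member over the 300 bases from 250 before to 50 after the gene start. That of Vmn2r94 in the same cluster has 50.7% at most, and Vmn2r94 was in 1 equal-length list. Vmn2r107 had 20, 0 and 0 steps in control and 4, 7 and 6 in mutant libraries. Vmn2r99 had 15, 0 and 0 steps in control and 5, 9 and 10 in mutant libraries, the last the highest of any member in mutant replicate 3. Vmn2r103 had 15, 0 and 2 steps in the control and 6, 8 and 6 in mutant libraries. At Vmn2r96, Vmn2r107, Vmn2r99 and Vmn2r103 the peaks of control replicate 2 were missing, as at every other member of this cluster.

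Another chromosome 17 cluster, from Vmn2r111 to Vmn2r117, holds receptors with known ligands. Vmn2r116 is the receptor of ESP1, a male pheromone of tear fluid, and Vmn2r115 of ESP22, a juvenile pheromone; both were named for these roles outside the rule for named members. Vmn2r116 reached 10, 3 and 0 steps in control and 4, 6 and 4 steps in mutant libraries. Vmn2r115 reached 11, 0 and 0 steps in control and 3, 6 and 6 in mutant libraries, and its near-identical copy Vmn2r114 had 12, 0 and 0 and 4, 6 and 6. The near-identical copies printed above thus were called in the same 4 libraries in the full lists. In equal-length lists Vmn2r114 was called in control replicate 1 and mutant replicate 2, and Vmn2r115 in none. Vmn2r112 in the same cluster had 12, 0 and 0 steps in control and 7, 5 and 5 in mutant libraries, and Vmn2r117 had 13, 0 and 3 and 4, 5 and 6. Of the isolated genes of chromosome 17, Vmn2r118 had 9, 0 and 3 steps in control and 6, 5 and 7 in mutant libraries. Vmn2r120 had 9, 0 and 2 and 0, 6 and 5.

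The chromosome 5 cluster of 10 members (Vmn2r8 to Vmn2r17, chr5:108797193-109453387) was also densely covered, with 32.5% of its length under peaks in control replicate 1. All 10 were called there and in mutant replicates 2 and 3, against 67.9%, 93.8% and 94% of matched genes. The other libraries called 2 in control replicate 2, 4 in control replicate 3 and 7 in mutant replicate 1, against 9.85%, 23.9% and 45.1%. Vmn2r12, whose upstream sequence is printed above, was called in all 6 libraries, with 13, 3 and 2 steps in control and 5, 5 and 7 in mutant libraries. Its start is 95.7% identical to that of Vmn2r13. Vmn2r10, Vmn2r16 and Vmn2r17 were each called in 3 equal-length lists, and their highest peaks in control replicate 1 were 15, 14 and 13 steps. Vmn2r18, alone on the same chromosome, was the other gene of chromosome 5 called in every library, with 11, 2 and 4 steps in control and 5, 6 and 7 in mutant libraries.

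**Figure D3:**
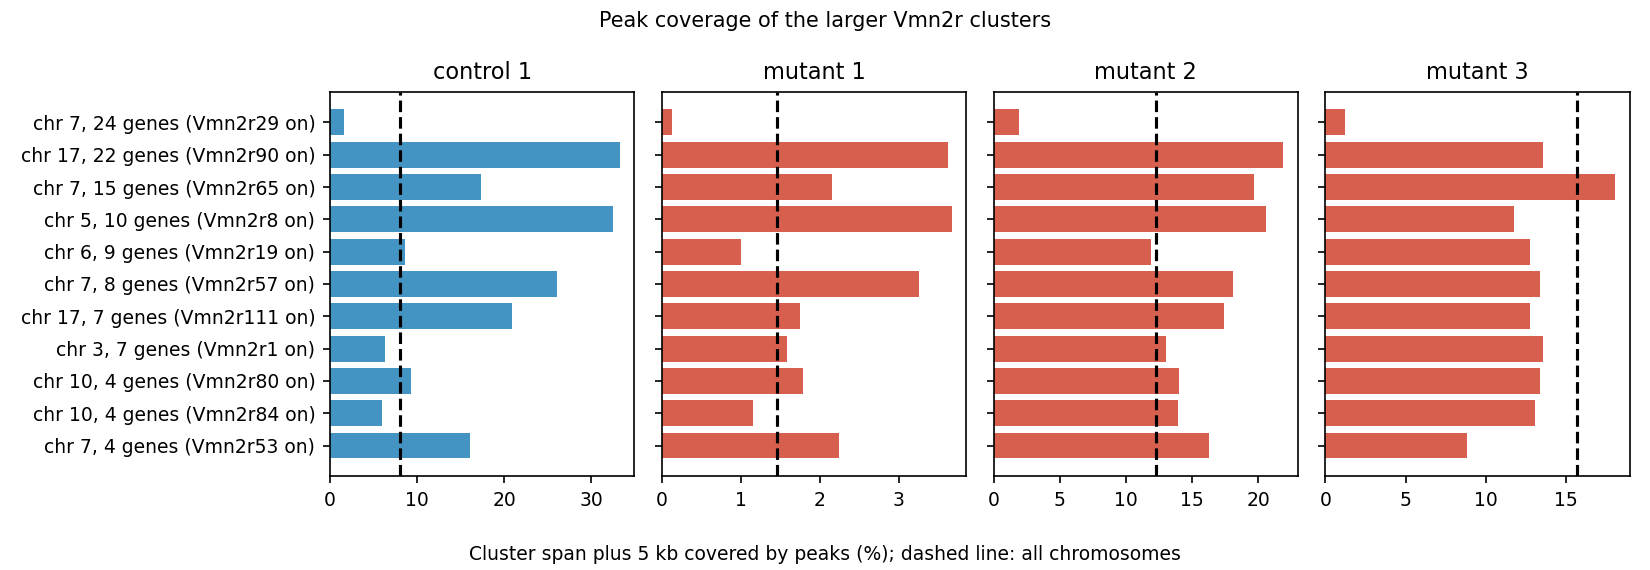
Percent of each cluster's span plus 5 kb covered by peaks in the 4 libraries with the longest lists, for the 11 clusters of 4 or more Vmn2r genes; the dashed line is the percent of all chromosomes covered, and the scales differ between panels. The cluster of 24 lies far left of the line in all 4 panels, while the clusters that begin at Vmn2r90 and Vmn2r8 lie right of it in the first 3 panels and left of it in mutant replicate 3.

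The chromosome 3 cluster holds the 7 genes Vmn2r1 to Vmn2r7 (chr3:64078172-64719602), known as family C, whose products are made broadly across basal vomeronasal neurons beside a receptor of another family. Among clusters of 4 or more genes it had the largest share called in control replicate 2, with 3 of 7 against 18.3% of matched genes, but these include the overlapping genes Vmn2r1 and Vmn2r2. In control replicate 3 it had 4 of 7 against 40.1%. Control replicate 1 called 4 of 7 against 83.6%, and mutant replicates 1, 2 and 3 called 5, 7 and 7 against 62.7%, 98.1% and 98.4%. Vmn2r1 was called in every library, with 12, 5 and 3 steps in control and 3, 7 and 6 in mutant libraries. Its 5 steps in control replicate 2 were the highest of any member there. Vmn2r2, which lies within the span of Vmn2r1 and shares peaks with it, had 8, 2 and 3 steps in control and 3, 6 and 6 in mutant libraries. Vmn2r3 had 14, 0 and 3 steps in control and 10, 7 and 7 in mutant libraries, the 10 being the highest of any member in mutant replicate 1. Vmn2r6 had 23, 2 and 0 steps in control and 3, 5 and 6 in mutant libraries, and its 23 steps were the highest of any member in control replicate 1. Its start is 99.3% identical to that of Vmn2r7, which had no peak in that library, so its value is uncertain. Vmn2r4 and Vmn2r5 were called in mutant replicates 2 and 3 alone.

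The remaining chromosome 7 clusters of 4 or more genes had larger shares called than the cluster of 24 in the 4 longest lists. The 8 genes from Vmn2r57 to Vmn2r126 (chr7:41399732-43048106) were called 6, 0 and 5 times in control and 6 times in each mutant library, all but Vmn2r62 and Vmn2r126 being present in the longest lists. Matched genes gave 84.2%, 20.4% and 39.4% in the control and 65.6%, 98.3% and 98.2% in the mutant lists. This cluster thus lay below its matched share in control replicates 1 and 2 and mutant replicates 2 and 3, and above it in the others. Vmn2r59 had 17, 0 and 2 steps in control and 7, 8 and 6 in mutant libraries. Vmn2r58 had 20, 0 and 2 and 6, 9 and 5, and Vmn2r60 had 15, 0 and 2 and 4, 7 and 7. Vmn2r63, which lies between the uncalled Vmn2r62 and Vmn2r126, had 16, 0 and 3 steps in control and 5, 6 and 7 in mutant libraries. The 15 genes from Vmn2r65 to Vmn2r79 were called 14, 2 and 4 times in control and 9, 15 and 15 times in mutant libraries, against 71%, 10.9% and 24.8% and 43.9%, 95% and 94.9% of matched genes. In it lie Vmn2r76 at 14, 0 and 0 and 6, 8 and 6 steps and Vmn2r75 at 12, 0 and 3 and 5, 8 and 4 steps. Vmn2r54, of the 4-gene cluster that begins at Vmn2r53, had 13, 0 and 2 steps in control and 5, 5 and 4 in mutant libraries. Vmn2r28, alone at chr7:5480456-5493851, had 7, 0 and 0 and 0, 5 and 5 steps.

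On chromosome 6 the 9 genes from Vmn2r19 to Vmn2r27 (chr6:123308333-124231784) were called 7, 1 and 3 times in control and 4, 8 and 8 times in mutant libraries. Matched genes gave 83%, 18% and 37.2% in the control and 62.9%, 98.6% and 97.6% in the mutant lists, so the cluster lay below its matched share in all 6, by less than 2 members in each. Vmn2r26, known as V2r1b and studied as a receptor for peptides that bind major histocompatibility molecules, had 15, 0 and 4 steps in control and 3, 6 and 5 in mutant libraries. Vmn2r21 had none. On chromosome 10, Vmn2r82 had 15, 0 and 0 steps in control and 3, 7 and 5 in mutant libraries, and Vmn2r86 had 9, 2 and 0 and 3, 5 and 6. On chromosome 14, Vmn2r89 had 10, 0 and 0 steps in control and 0, 9 and 6 in mutant libraries. The lone genes of chromosomes 4 and X differed in their lists: Vmn2r129 had 13, 0 and 0 and 4, 8 and 7 steps, whereas Vmn2r121 had none in control libraries and 0, 6 and 5 in mutant libraries.

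Near-identical members were more often without a peak than others, and many of them lie in the cluster of 24. Promoters of 116 of the 122 members were in the RefSeq table, and identity was measured over their 300 bases in all 6670 pairs. The identity to the most alike other member had a median of 91.7% and ran from 50.7% to 100%. At 56 pairs it was at least 95%, and 4 pairs were identical: Vmn2r62 with Vmn2r126, Vmn2r31 with Vmn2r33, Vmn2r32 with Vmn2r49 and Vmn2r34 with Vmn2r45.

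Of the 36 members with a promoter at least 95% identical to another, 10 were in no list, against 2 of the 80 below 95% and 3 of the 6 without a promoter in the table. The 36 were called 16, 6 and 8 times in control and 15, 24 and 20 times in mutant libraries. The 80 were called 73, 6 and 27 times in control and 53, 77 and 76 times in mutant libraries. This difference overlapped with the cluster: of the 36, 16 lay in the cluster of 24 and were called 1, 2 and 3 times in control and 0, 6 and 2 times in mutant libraries. The 20 outside it had 15, 4 and 5 calls in control replicates 1, 2 and 3. In mutant replicates 1, 2 and 3 they had 15, 18 and 18. Thus 18 of 20 near-identical members elsewhere, all but Vmn2r62 and Vmn2r126, were in both long mutant lists. Outside the cluster every member below 95% was in both, as Vmn2r21, also missed there, had no promoter in the table. In control replicate 1, 75% of the 20 were called, against 91.2% of the 80 below 95%, which include 6 in the cluster. The share of the 20 was also lower in control replicate 3 and mutant replicates 2 and 3. It was higher in control replicate 2 and mutant replicate 1. Inside the cluster the 6 members below 95% had 2, 0 and 2 calls in control and 1, 3 and 2 in mutant libraries. Most of these calls were of Vmn2r51 and Vmn2r52 at the end of the cluster, with identities of 94% and 93.7%. Identity and place in the cluster cannot be told apart with so few members, and the part of either was not tested.

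Identical pairs did not always share their calls. Vmn2r31 had 0, 0 and 2 steps in control and 0, 5 and 0 in mutant libraries, while Vmn2r33 had none. Vmn2r32 had the same values as Vmn2r31, while its own identical partner Vmn2r49 had none. Vmn2r35, also in the cluster and with 96.7% identity to Vmn2r39, had none. Identity of the gene start was computed for 300 bases only, and how uniquely reads can be placed over whole members was not tested.

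**Figure D4:**
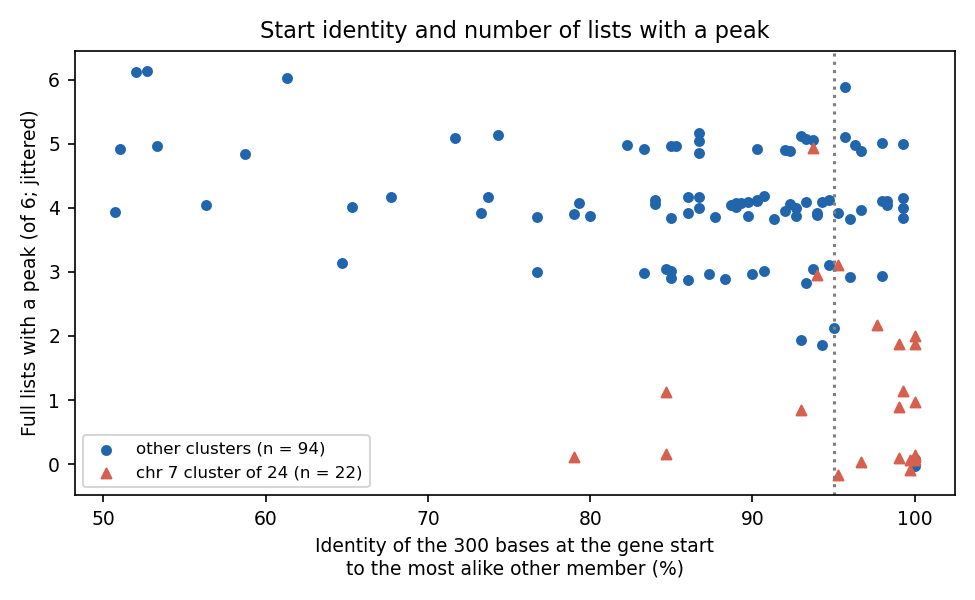
For each of the 116 Vmn2r genes with a RefSeq promoter, the identity in percent of its 300 bases at the gene start to the most alike other member (x axis) against the number of full lists with a peak, out of 6 (y axis, with small vertical scatter added); triangles are the chromosome 7 cluster of 24, and the dotted line is at 95%. Members outside that cluster have 2 or more lists at any identity, except Vmn2r62 and Vmn2r126, which both have 100% identity and 0 lists.

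A minority of members had a peak on the gene start itself. On the 300 bases at the start, 26 of 116 members had a peak in control replicate 1 (22.4%), against 15.3% of the 17492 genes with a promoter in the table. Control replicate 2 had none, against 0.24% of all genes, and control replicate 3 had 1 (0.862%) against 0.366%. Mutant replicate 1 had 6 (5.17%) against 2.29%, mutant replicate 2 had 28 (24.1%) against 16.1%, and mutant replicate 3 had 29 (25%) against 35.3%. The counts of control replicates 2 and 3 are too small to be read either way. Of the other libraries the family's share lay above all genes in 3 and below in mutant replicate 3. No intervals were computed for these shares, and that of mutant replicate 1 rests on 6 members. No member had a start peak in more than 3 libraries: Vmn2r117, Vmn2r13, Vmn2r59 and Vmn2r63 had 3. At the start of Vmn2r63 the peaks were 10, 0 and 0 steps high in control and 5, 6 and 0 in mutant libraries.

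The starts of Vmn2r genes rarely held the core motif of nuclear receptors. AGGTCA, searched on both strands, occurred in 3 of 116 member promoters (2.59%) and in 16.7% of all 17492 promoters of the same length. The 3 were Vmn2r106, Vmn2r109 and Vmn2r18. Repeats of the core in the spacings known for retinoic acid receptors, AGGTCANNAGGTCA and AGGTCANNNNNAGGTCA, were in 0 of 116 members, and in 0 and 1 (0.00572%) of all promoters; these exact letters are rare, and each contains the core motif. Member promoters were also poorer in GC, with a median of 38% (29.0 to 50.3%) against 56.3% over all, and the part of base composition in the motif count was not tested. Vmn2r106 had peaks of 12, 0 and 0 steps in control and 6, 5 and 6 in mutant libraries within its window, and Vmn2r109 had 17, 0 and 0 and 0, 5 and 8. On the 300 bases at their starts, which hold the printed sequence and the 50 bases after it, each had a peak in control replicate 1 alone, of 11 and 9 steps.

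Peak heights at called members were close to those at called genes of their length. The highest peak of a called member had a median of 12 steps in control replicate 1 (6 to 23) and 2 in control replicates 2 (2 to 5) and 3 (2 to 4). In mutant replicates 1, 2 and 3 the medians were 4 (2 to 10), 6 (2 to 11) and 6 (3 to 10). Called genes of matched length had medians of 11, 2 and 2 in the control and 4, 5 and 6 in mutant libraries. Their tallest peaks were far above those of the family, at 62, 8 and 8 steps in control and 64, 147 and 112 in mutant libraries, but they are a much larger set of genes. No member carried a peak of such height.

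**Figure D5:**
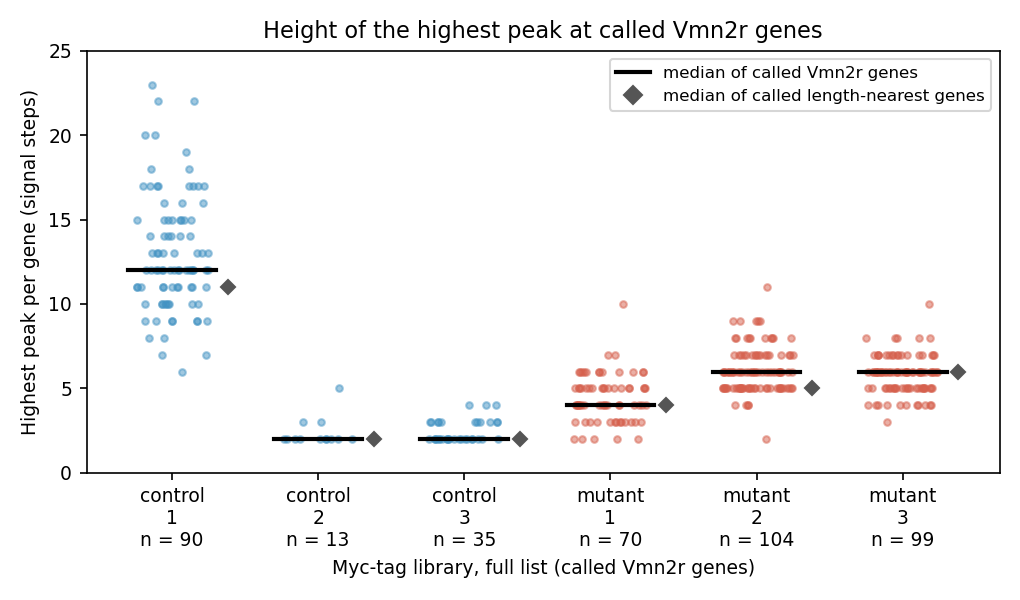
Height of the highest peak, in signal steps of each library, at every Vmn2r gene called in the full list (points), with the median of the called members (line) and of the called genes nearest in length (diamond). Medians of members and matched genes differ by at most 1 step in each library, and heights are comparable only within a library.

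No Vmn2r gene was called in every library of one genotype and in none of the other. In equal-length lists such genes were rare, so the absence of members there is near the share of all genes. The share among genes of matched length was not computed. In equal-length lists no member was called in all 3 libraries of one genotype and in none of the other, where 82 of all genes (0.377%) were so for control and 96 (0.441%) for mutant. In the full lists there was again no member, against 1 gene (0.00459%) for control and 1183 genes (5.43%) for mutant. In the full lists, 40 members (32.8%) were called in all mutant libraries and in control replicate 1 but in neither of the short control lists, as were 17.6% of all genes. By number of lists, 15 members were in none, 5 in 1, 8 in 2, 18 in 3, 48 in 4, 24 in 5 and 4 in all 6, where their length-matched shares give 2.66 members in none and 3.34 in all 6. Over all genes, without regard to length, 3.54% were in none and 8.04% in all 6, against 12.3% and 3.28% of the members.

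Heights were tested at genes with a peak in every full list, which were 4 members among 1751 genes. These are the members that carry peaks even in the shortest lists, so they do not stand for the family. The test was limma on log2 highest signal, centred on the median of each library, with Benjamini-Hochberg adjustment over all 1751 genes. No gene passed an adjusted p of 0.05 (smallest 0.947). An unadjusted p under 0.05 was found for 83 of the 1751 genes and 0 of the 4 members, too few members for a contrast. In control replicates 2 and 3, 93.2% and 93.3% of all peaks were 2 or 3 steps high, 2 being the lowest height. Heights there had little room to differ, so the lack of genes past the threshold does not show equal heights. On this scale Vmn2r1 was -0.79 (SE 0.36) in mutant relative to control libraries, with an adjusted p of 0.947 in limma, and its centred values overlapped between genotypes. For Vmn2r12 the log2 difference was -0.23 (SE 0.30), and for Vmn2r18 it was -0.20 (SE 0.24), both with an adjusted p of 0.973 in limma. Vmn2r2 shares peaks with Vmn2r1 and had -0.23 (SE 0.28). The median over all genes tested was -0.09, so all 4 lay on the lower side of it by amounts within their errors except Vmn2r1, which did not pass the test. With genes in at least 5 lists, where a missing library was left out of a gene's fit, 28 members among 5310 genes were tested and again none passed, with 5 members and 351 genes at an unadjusted p under 0.05 and a median of -0.32 over members and -0.18 over all genes.

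Genes linked to vomeronasal neurons and their receptors were counted in the same way, without matching for length, although their spans ran from 2089 to 554955 bp. The list of 24 held signalling genes, markers and chaperones. Not all are particular to basal neurons, Gnai2, Rtp1 and Rtp2 among them. In the full lists 17, 4 and 12 of them were called in control (70.8%, 16.7% and 50%) and 14, 23 and 20 in mutant libraries (58.3%, 95.8% and 83.3%). The percentages of all genes given above were 70.1%, 16.7% and 32.4% for control and 50%, 92.2% and 93.0% for mutant libraries. Trpc2, the cation channel that carries the sensory current, had 9, 0 and 2 steps in control and 3, 4 and 4 in mutant libraries. Gnao1, the G protein subunit of the basal neurons, had 15, 0 and 0 and 5, 6 and 8, and Gng8, a G protein gamma subunit, had a peak only in mutant replicate 2, of 3 steps. Calr4, a chaperone of the calreticulin family, had 9, 2 and 3 steps in control and 5, 7 and 7 in mutant libraries. The H2-M10 genes, nonclassical class I molecules made with some of these receptors, ranged from H2-M10.6, with 13, 0 and 3 and 2, 5 and 5 steps, to H2-M10.5, with none in control and 0, 3 and 5 in mutant libraries. No difference between genotypes was tested for these genes as a list.

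Markers of the cells that the sample could hold were counted only as genes with a peak, which says nothing of expression. Of 10 cortical progenitor genes, 6, 0 and 2 were called in control and 6, 9 and 10 in mutant libraries. The counts were 4, 1 and 1 and 2, 4 and 6 for 6 meningeal fibroblast genes, 3, 1 and 0 and 4, 4 and 4 for 5 vessel genes, and 3, 0 and 1 and 2, 4 and 3 for 4 vomeronasal neuron genes. Their part in the Vmn2r values was not tested.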

How the data were processed

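The 6 deposited Myc-tag peak lists were used, 1 per library, so peak calling was done library by library and not on pooled samples. The authors used SEACR with the build mm10, per the submitters' processing notes. The SEACR version and settings, the aligner, the treatment of reads that map to several places, any control library and the scaling were not given in the sources used here. For each peak the authors deposited a total and a highest signal; within a library the highest signals were whole multiples, within 0.01, of 1 unit, called a step. Peaks on 21 chromosomes were kept, and 0 or 1 peak per list was left out.

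Gene positions were taken from RefSeq on GRCm38.p6, which is the assembly behind mm10. Genes whose table coordinates start below 3 Mb on a chromosome other than Y (108, Vmn2r122 among them) were taken as lying on contigs and left out. Shares were compared with the 200 non-member genes nearest in span length, all used with no random draw, because each list has its own length. Equal-length lists hold the 11869 peaks of highest total signal. Named members were the 12 in the most full lists, those in 3 or more equal-length lists, up to 4 in no list, 1 per cluster, and the closest pairs; closeness was planned on proteins and was computed on promoter sequence instead, because no protein table was used here. These rules gave 39 members. The members and lists were chosen with earlier results of these data known.

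Heights were tested with limma 3.58.1 in R 4.3.3 with a trend, at an adjusted p of 0.05. Other values were computed with Python 3.11.15, numpy 2.4.6, pandas 2.3.3 and edlib 1.3.9.post1, and the scripts were tested on simulated data. The labels give no batch.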

Additional observations from a re-analysis of the deposited data

How the results depend on the processing

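The depth behind the lists is unknown, and a list of 11869 peaks limits what its absences show. Leaving out the cluster of 24 or the members with promoters at least 95% identical was chosen after seeing the data. The difference of the family from length-matched genes in the full lists, in percentage points, changed sign or moved as follows, and the cause was not tested. In control replicate 1 it was 3.43 with a window of 1 kb, -10.5 with 25 kb, 13.0 without the cluster and 11.5 without the near-identical members. In control replicate 3 it was 1.25 with 25 kb, 0.117 without the cluster and 1.77 without the near-identical members. In control replicate 2 it was -6.32 with 25 kb and -5.55 without the near-identical members. In mutant replicate 1 it was -5.66 with 25 kb, 17.8 without the cluster and 12.8 without the near-identical members. In mutant replicates 2 and 3 it was 0.842 in each without the cluster, and -2.45 and -3.67 without the near-identical members.

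The mutant minus control difference was -4.55 points in the full lists, 3.11 without the cluster and -8.46 with the upper 50% of peaks by total signal, with a range of -10.8 to -0.405 when 1 library was left out. In equal-length lists it was -0.119 points, -4.97 with the upper 50% of peaks, 2.29 with 25 kb, 0.961 without the cluster, 6.46 without control replicate 1 and 7.82 without mutant replicate 3, with a leave-one-out range of -6.22 to 7.82.

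Genes called in control alone numbered 82 in equal-length lists, 1 in full lists and 169 with 25 kb, and 115 to 334 with 1 library left out; Vmn2r genes among them were 0, with 1 at 25 kb and 0 to 3 with 1 left out (Vmn2r117, Vmn2r52 and Vmn2r63 without control replicate 2). Genes called in mutant alone numbered 96, 1183 in full lists, 147 with 25 kb and 123 to 285 with 1 left out; Vmn2r genes among them were 0, and 0 to 4 with 1 left out (Vmn2r124, Vmn2r108, Vmn2r55 and Vmn2r71 without mutant replicate 3).

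The log2 height difference turned to 0.0111 for Vmn2r2 without mutant replicate 1 (range -0.458 to 0.0111 with 1 library left out) and to 0.0464 for Vmn2r18 without control replicate 3 (-0.511 to 0.0464). No alternative to limma's settings gave a gene past the threshold. The labels do not say whether same-numbered replicates belong together. Their heights correlated at 0.0377, 0.0509 and -0.0023 between genotypes, and other pairings at -0.055 to 0.0201. Most peaks of control replicates 2 and 3 were 2 or 3 steps high, so these values cannot settle whether replicates are paired. With a replicate block, limma again called 0 genes (smallest adjusted p 0.0568, 106 genes at an unadjusted p under 0.05), the differences stayed at -4.55 and -0.119, and Vmn2r1 at -0.79. The number of lists calling a named member was unchanged for 29 of 39 members with 1 kb, 25 with 25 kb and 36 when 50% of a peak had to lie inside.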

Other observations

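The vomeronasal type 1 receptors and olfactory receptors are the other large clustered chemoreceptor families of the mouse, and they were counted in the same way without matching for length. Of 228 Vmn1r genes, 43.9%, 3.95% and 7.46% were called in control and 24.6%, 66.7% and 66.2% in mutant libraries. Of 1105 Olfr genes, 54.9%, 5.34% and 13.2% were called in control and 30.7%, 93.8% and 95% in mutant libraries. Of 35 Tas2r genes, the bitter taste receptors, 68.6%, 11.4% and 25.7% were called in the control and 40.0%, 97.1% and 94.3% in mutant libraries. In mutant replicates 2 and 3 the Vmn1r share was the lowest of the 4 families and the Vmn2r share, 85.2% and 81.1%, the next lowest, and differences between families were not tested.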
